A study of Mus musculus with 28 samples.

Results

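The fatty acid and triglyceride synthesis genes are 10 genes taken by name, Acly, Me1, Acaca, Fasn, Elovl6, Scd1, Dgat2, Pck1, Srebf1 and Mlxipl, out of the 29068 gene symbols in the deposited tables. All 10 were found as rows of the raw count matrix and all 10 passed the filter on low counts, as did 18107 genes in all. Total RNA was taken from skin at the site of a full-thickness dorsal punch wound in MLKL+/+ mice on a C57BL/6J background, aged 8 weeks by the study's methods and with no sex in the labels (the methods say that the study used males and females), and was sequenced in 28 libraries. There were 7 groups of 4 libraries, labelled day 0, 3, 5, 7, 10, 12 and 14, and all of them carry the treatment label Natural wound healing. The earliest group is day 0 in the labels, the methods of the study call its earliest time point day 1, the day of injury, and no separate group of unwounded skin was analysed here. The series design names it as the control and speaks of 5 repeats a day, of which 4 libraries a day were analysed here. No transgene, knockout or drug entered these groups. The tissue was the whole wound site with its scab and epithelial margins, so each library mixes epidermis, dermis, fat, muscle and immune cells. In such bulk RNA, fewer cells of a type and less RNA per cell cannot be told apart. The labels do not say that the 4 libraries of a day came from separate mice, so the p-values measure only the spread between libraries.

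New fatty acids are built in the cytosol. ATP citrate lyase (Acly) splits citrate into acetyl-CoA, acetyl-CoA carboxylase 1 (Acaca) turns acetyl-CoA into malonyl-CoA in the committed step, and fatty acid synthase (Fasn) joins these units into palmitate with NADPH that malic enzyme 1 (Me1) helps to supply. Elovl6 lengthens palmitate to stearate, and the desaturase Scd1 places a double bond in these chains. Dgat2 attaches the last acyl chain of a triglyceride, and Pck1, the cytosolic PEPCK, is known in fat cells for making the glycerol backbone from non-sugar precursors. Srebf1 and Mlxipl, which encode SREBP-1 and ChREBP, are transcription factors known to drive many of these genes. In skin the pathway is known from dermal and subcutaneous fat and from the sebaceous gland, whose secreted lipids coat the hair.

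The 10 genes are spread over 7 mouse chromosomes in build GRCm38.p6. Fasn (chr11:120805958-120825166, minus strand), Acaca (chr11:84129635-84401651, plus strand), Acly (chr11:100476352-100528000, minus strand) and Srebf1 (chr11:60199084-60224186, minus strand) lie on chromosome 11. Scd1 lies at chr19:44394450-44407709 on the minus strand, Elovl6 at chr3:129532386-129638495 on the plus strand, Me1 at chr9:86581363-86695914 on the minus strand, Mlxipl at chr5:135089890-135139768 on the plus strand, Dgat2 at chr7:99153663-99182713 on the minus strand and Pck1 at chr2:173153073-173159274 on the plus strand. RefSeq promoter windows matched 8 of the 10 genes, with Scd1 and Dgat2 unmatched. Shown here are the 250 bases before a RefSeq start of Fasn, whose level doubled in the early wound, of Elovl6, whose level fell at the same time, and of Pck1, which changed most. Each is read 5′ to 3′ on the gene's own strand, from chr11:120824548-120824797 for Fasn, chr3:129532136-129532385 for Elovl6 and chr2:173152823-173153072 for Pck1. Capitals mark matches to 6 searched motifs on either strand, and overlapping matches run together.
Fasn: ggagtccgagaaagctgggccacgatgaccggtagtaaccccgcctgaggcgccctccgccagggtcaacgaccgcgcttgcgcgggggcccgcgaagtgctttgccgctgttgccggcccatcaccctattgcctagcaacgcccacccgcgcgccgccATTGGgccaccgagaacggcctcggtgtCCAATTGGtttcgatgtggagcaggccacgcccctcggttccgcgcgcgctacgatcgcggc
Elovl6: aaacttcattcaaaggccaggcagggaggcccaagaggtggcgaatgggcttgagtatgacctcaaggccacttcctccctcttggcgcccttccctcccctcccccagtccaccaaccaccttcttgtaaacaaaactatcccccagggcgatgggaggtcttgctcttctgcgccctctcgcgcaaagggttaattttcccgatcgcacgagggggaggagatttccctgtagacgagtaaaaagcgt
Pck1: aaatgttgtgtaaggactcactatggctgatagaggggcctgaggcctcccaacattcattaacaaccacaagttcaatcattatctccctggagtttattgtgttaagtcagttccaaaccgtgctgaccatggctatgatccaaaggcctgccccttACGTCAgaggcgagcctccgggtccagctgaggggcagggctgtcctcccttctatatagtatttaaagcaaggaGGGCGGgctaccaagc
The Fasn window held 3 matches to the CCAAT box (CCAAT), at 90 to 86, 62 to 58 and 59 to 55 bases before the start, of which the last pair overlap. The Pck1 window held 1 match to the half-site of a cyclic AMP response element (TGACGT), at 91 to 86 bases before the start, and 1 GC box (GGGCGG), at 16 to 11. The Elovl6 window held none of the 6. Over all 32851 RefSeq windows of this length, CCAAT was found in 33.8%, GGGCGG in 32.7%, TGACGT in 6.47%, the E-box CACGTG in 6.02%, the sterol regulatory element written as TCACNCCAC in 1.05% and the PPAR direct repeat in 0.0335%. Among the other windows, Mlxipl held a CACGTG at its first start and a TCACNCCAC at its second, and Acly held 4 GGGCGG. These matches describe letters only and are not evidence that a factor binds.

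Library totals ran from 36706513 to 40655764 counts, with a median of 39499595. The lowest count of any member in any library was 495, in Mlxipl. For Mlxipl, the lowest member, the spread between libraries was as small as a coefficient of variation of 1.6% on day 5, at 1374 to 1426 counts, where counting error is not small beside it. The coefficient of biological variation over all genes was 26.4% on day 0 and 5.7% to 10.8% on the later days. Libraries of the same day differed beyond counting noise, with a median chi-square of at least 1.474 against the 0.455 of counting noise, so no library was counted as deposited again. Day 5 replicate 4, day 7 replicate 4 and day 14 replicate 3 stood apart over all genes, with a median chi-square against the other libraries of their day of 4.984 to 5.412, 3.415 to 3.82 and 3.498 to 3.739. The largest values were within day 0, at 8.054 to 10.03 between replicates 1 or 4 and replicates 2 or 3. Day 0 replicates 2 and 3 gave 1.65, and replicates 1 and 4 gave 4.015. Xist had at most 13 counts in any library, near counting noise. Levels below are FPKM, counts scaled to gene length and library total, which can be set side by side between genes. Differences are log2 fold changes from raw counts by edgeR's quasi-likelihood test over all 28 libraries, with p adjusted by Benjamini-Hochberg over 18107 genes, and a gene passed the test with an adjusted p under 0.05.

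The members differed widely in level. Scd1 was the highest at a mean of 1250 FPKM over the 28 libraries and was 38th among all genes, followed by Pck1 at 216 FPKM, Fasn at 205 FPKM, Dgat2 at 169 FPKM and Elovl6 at 123 FPKM. Me1, Acly, Acaca and Srebf1 averaged 78.6, 65.5, 37.1 and 32.7 FPKM. Mlxipl was the lowest at 4.68 FPKM. All 10 members changed across the 6 wound days, by a joint F test in the same edgeR fit, with adjusted p between 1.7e-15 for Pck1 and 0.000549 for Dgat2. The level of day 0 is not compared in this test, although its spread enters the fit. The background for that test is high, since 85.1% of all genes tested passed it.

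**Figure D1:**
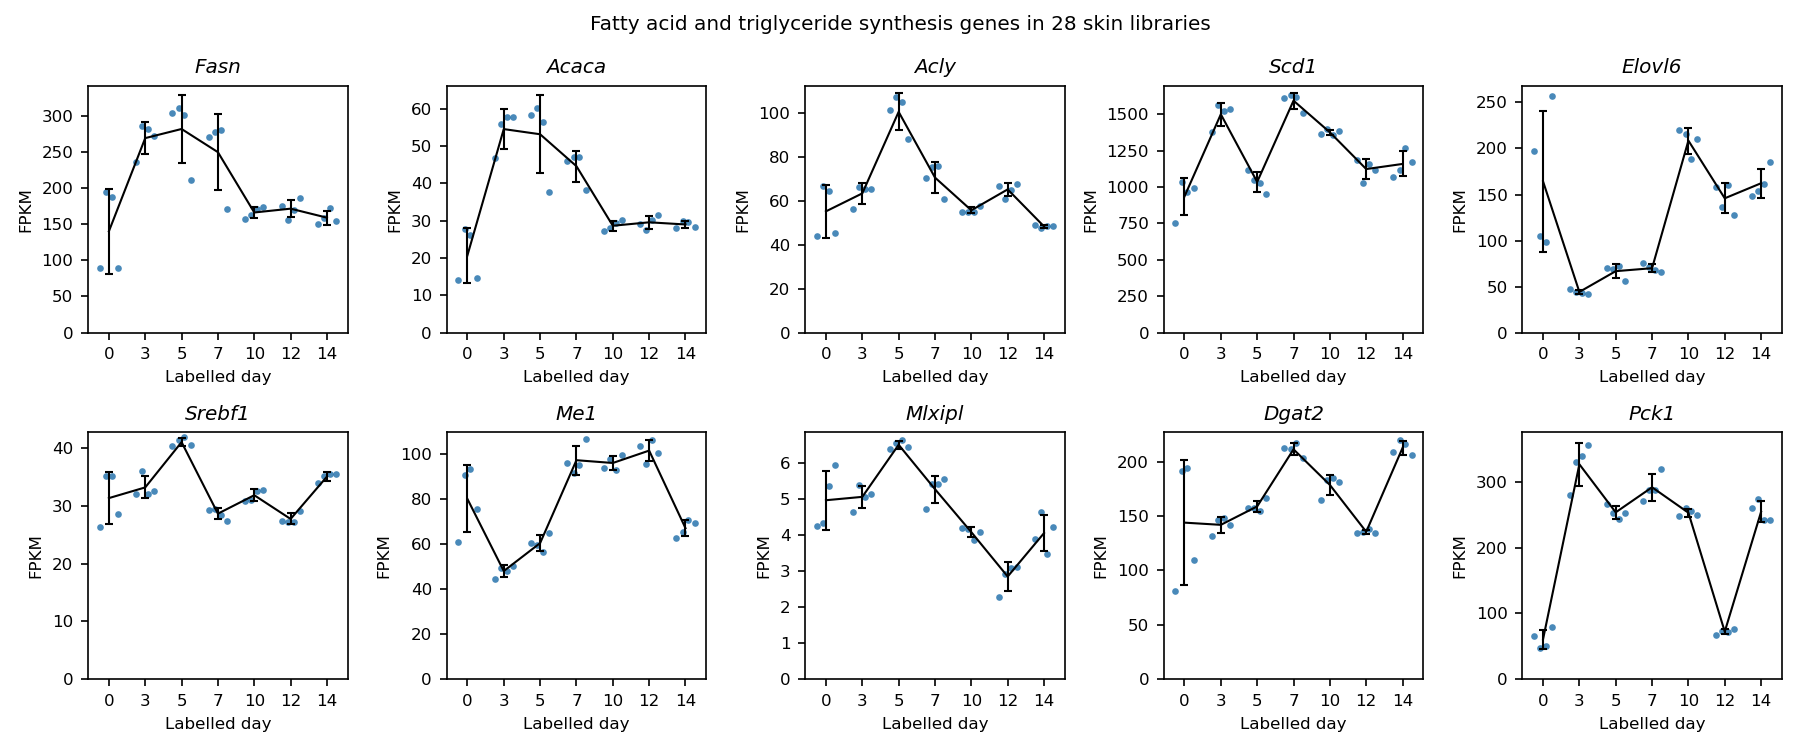
Level of each of the 10 genes in FPKM (vertical axes, linear from 0) by labelled day (horizontal axes). Dots are single libraries, 4 a day, and the line joins the day means with bars of 1 SD. Fasn and Acaca are high on days 3 to 7, Elovl6 is low on those days, and Pck1 is high on every later day except day 12.

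Against day 0, more of the 10 members passed the test on days 5 and 7 than on any other day. Day 3 had as many as day 14, and both were near the share of all genes. On day 3, 5 were higher and 2 lower, where 31.8% of all genes were higher and 34.8% lower. On day 5, 7 were higher and 2 lower, against 29.0% and 30.6% of all genes, and on day 7, 7 were higher and 1 lower, against 25.6% and 24.8%. On day 10, 4 were higher and 1 lower (background 23.5% and 26.9%), on day 12, 0 higher and 2 lower (21.7% and 25.6%), and on day 14, 4 higher and 3 lower (28.2% and 34.5%). Among these 10 genes, the share that were higher was furthest over the background on days 5 and 7. The share that were lower was under it on every day, though close to it on days 12 and 14. In 8-library edgeR fits, 3 members were higher on day 7, 2 on day 10 and 1 on day 14. Over all genes in those fits, 3030 of 16863, 3487 of 16767 and 4958 of 16728 were higher, so the late counts do not stand out. The day 12 count of 0 higher was from edgeR, where 2 members, Acaca and Me1, were higher with an unadjusted p under 0.05, and DESeq2 on all libraries gave 1. With scaling to library totals only, which moved the median of all genes by 0.143 on day 12 and 0.126 on day 14, day 12 had 5 higher members, Acaca, Acly, Scd1, Me1 and Pck1. The 4 libraries lay apart from those of day 0, in FPKM, for 6 members of day 3 (56.4% of all genes), 7 members of day 5 (46.4%), 5 members of day 7 (39.4%), 3 members of day 10 (42.1%), 2 members of day 12 (41.3%) and 4 members of day 14 (52.0%). On counts scaled for composition, Me1 on day 12 and Acaca, Scd1 and Dgat2 on day 14 overlapped day 0. Srebf1 on day 12 and Mlxipl on day 14 lay apart on that scale only. The median absolute log2 difference of the members was 0.71, 0.67 and 0.66 on days 3, 5 and 7, beside 0.51, 0.42 and 0.32 for all genes tested. It was 0.27, 0.21 and 0.34 on days 10, 12 and 14, beside 0.32, 0.29 and 0.45 for all genes. By the criteria of the study, an absolute log2 fold change over 1.5 with unadjusted P under 0.05, only Pck1 and Elovl6 were counted on day 3, where 18.9% of all genes were. Pck1 alone was counted on days 5, 7, 10 and 14, against backgrounds of 13.9%, 9.4%, 9.47% and 14.0%, and no member on day 12, against 7.39%.

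**Figure D2:**
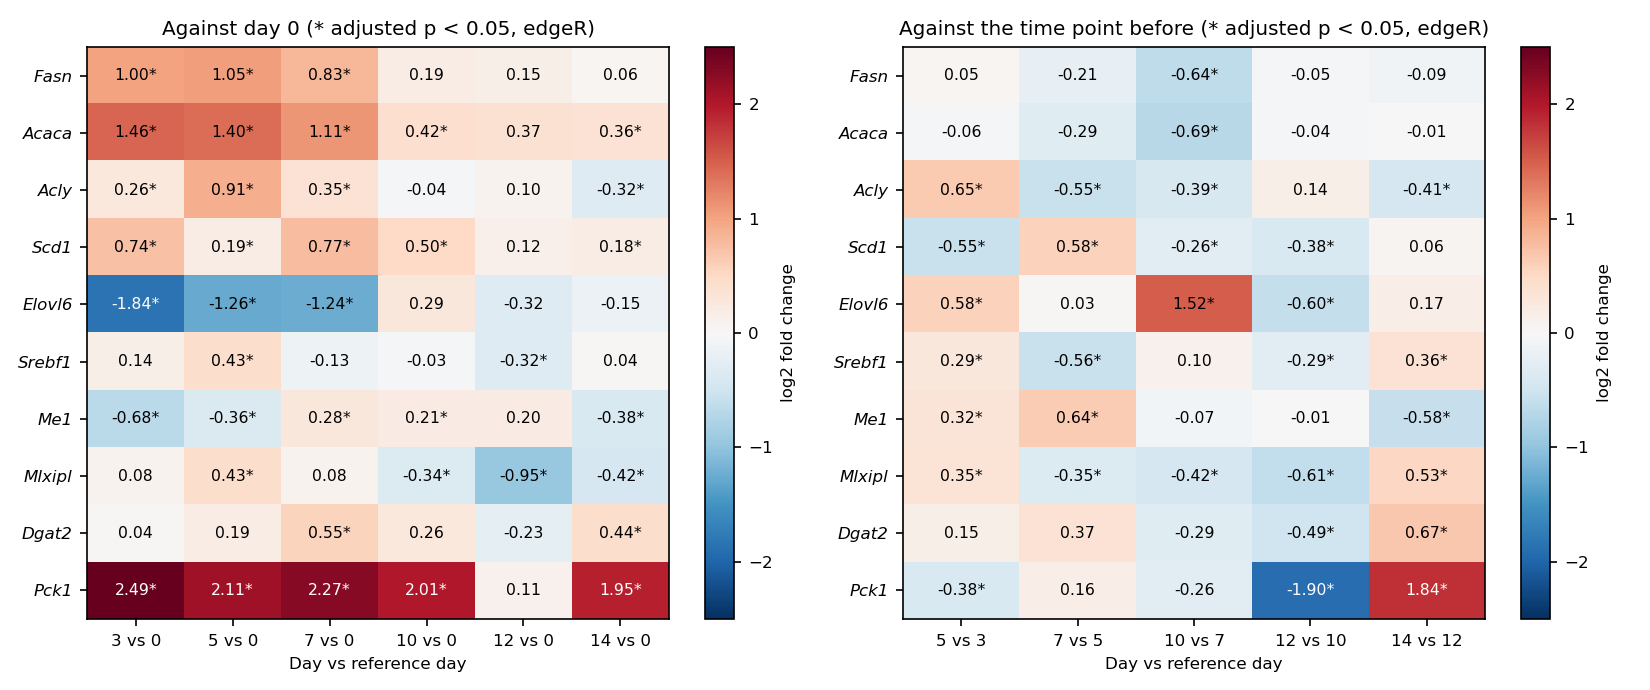
Log2 fold changes of the 10 genes (rows), on the left for each later day against day 0 and on the right for each wound day against the time point before it. Colour runs from -2.5 (blue) to 2.5 (red) and an asterisk marks an adjusted p under 0.05 (edgeR). Against day 0, Pck1 has the largest rise on every day except day 12. Elovl6 has the largest fall on days 3, 5 and 7 and Mlxipl on days 10, 12 and 14.

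The day 0 libraries were the most variable for these genes. The coefficient of variation of FPKM ran from 13.6% to 46.6% over the members on day 0 with a median of 22.9%, while the median on later days was 3.44% to 6.81%. Replicates 1 and 4 of day 0 lay below replicates 2 and 3 for Fasn, Acaca, Acly, Srebf1, Me1 and Dgat2, and above them for Elovl6 and Pck1. The same pairs of libraries were apart for some other tissues in the samples. The 6 skeletal muscle markers summed to 25522 and 26261 CPM (counts scaled to the library total after TMM correction for composition) in replicates 1 and 4 and to 14778 and 14888 CPM in replicates 2 and 3. The 6 fibroblast markers summed to 25002 and 14286 CPM in replicates 1 and 4 and to 55970 and 53733 CPM in replicates 2 and 3, and the 6 epidermis markers to 8496 and 9464 CPM against 5567 and 5933 CPM. Macrophage sums split by the same pairs, at 819 and 563 CPM against 949 and 954 CPM. So did the neutrophil sums (41.7 and 37.9 against 15.9 and 16.7 CPM) and the endothelial sums (400 and 351 against 523 and 490 CPM). The hair follicle sums, 1365, 424, 398 and 201 CPM in replicates 1 to 4, did not split by these pairs, nor did those of white adipocytes (4949, 5914, 5668 and 6182 CPM) or the sebaceous gland (2239, 2569, 2438 and 2634 CPM). None of the muscle, fibroblast and epidermis markers was at or near 0 in any day 0 library. The part of tissue makeup in the day 0 values of the members was not tested, and no library was set aside. Comparisons between wound days do not use the level of day 0, but their p-values rest on a spread estimated over all 28 libraries, day 0 among them.

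Acly was highest on day 5. Its level was 44.1, 66.6, 64.4 and 45.5 FPKM in replicates 1 to 4 of day 0, 56.1, 66.3, 65.5 and 65.4 FPKM on day 3, and 101, 107, 105 and 88.2 FPKM on day 5. All 4 day 5 libraries lay above all libraries of day 0 and of day 3. The day 5 level was 1.87-fold that of day 0 (log2 difference 0.91 ± 0.102 SE, n = 4 a group, edgeR adjusted p = 1.48e-08; exact permutation p = 0.0286, the smallest that 4 against 4 can give) and 1.57-fold that of day 3 (0.65 ± 0.102, edgeR adjusted p = 2.34e-05). It then fell by 0.55 on the log2 scale to 70.5 ± 7.05 FPKM (SD, n = 4) on day 7 and by 0.39 to 55.6 ± 1.36 FPKM on day 10. All 4 day 12 libraries lay above those of day 10 in FPKM, with a step of 0.14 that did not pass (edgeR adjusted p = 0.3) but did in the 8-library edgeR fit (0.15, 0.00475). On day 14 the level was 48.3 ± 0.521 FPKM, below all day 12 libraries (65.1 ± 3.05 FPKM, edgeR adjusted p = 0.00158). Only day 5 stood apart from its neighbour in the order of the 7 day means. The smaller calls against day 0 depended on the day 0 libraries. The day 3 difference of 0.26 (edgeR adjusted p = 0.0279) missed the threshold without day 0 replicate 1, at 0.22 and 0.0504. The day 14 difference of -0.32 (0.00817) was -0.17 without day 0 replicate 2 (adjusted p = 0.15) and -0.19 without replicate 3 (0.117). Fits of the 8 libraries alone lost the calls of day 3, day 7 and day 14, with edgeR adjusted p of 0.222, 0.146 and 0.153. With library totals only, day 3 gave 0.2 (0.0802), day 14 gave -0.19 (0.0943) and day 12 passed at 0.24 (0.0472, against 0.097 with TMM scaling). The day 10 difference of -0.041 did not pass and was 0.063 or 0.04 without day 0 replicate 2 or 3. A score is the mean log2 CPM of the markers of a cell type or tissue. The correlation of Acly over the 28 libraries was 0.79 with the macrophage and 0.68 with the neutrophil score. It was -0.65 with the hair follicle, -0.54 with the epidermis and 0.52 with the fibroblast score. The part of these cells was not tested.

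Me1 followed another course. It was lowest on day 3, at 44.3, 49.3, 48.3 and 50.2 FPKM, below all 4 day 0 libraries, which had 61.1, 90.5, 93.2 and 75.5 FPKM. The difference was -0.68 ± 0.0873 on the log2 scale (edgeR adjusted p = 1.08e-07, exact permutation p = 0.0286). Me1 was still lower on day 5 (-0.36, edgeR adjusted p = 0.00072), when 3 of 4 libraries lay below day 0. Between days 5 and 7 it rose 1.56-fold, from 60.4 ± 3.52 to 97.3 ± 6.43 FPKM (SD, n = 4), with all day 7 libraries above all of day 5 (edgeR adjusted p = 1.7e-06). It stayed at 96.1 ± 3.24 FPKM on day 10 and 102 ± 4.57 FPKM on day 12, and then fell by 0.58 on the log2 scale to 67.1 ± 3.69 FPKM on day 14 (edgeR adjusted p = 4.86e-06). Days 7, 10 and 12 overlapped one another, and the step from day 10 to 12, -0.0088, turned to 0.0097, 0.023 or 0.02 without day 10 replicate 2 or 4 or day 12 replicate 2. The calls of day 7 (0.28, edgeR adjusted p = 0.00914) and day 10 (0.21, adjusted p = 0.0467) against day 0 were small. Day 7 was 0.17 without day 0 replicate 1 and 0.24 in the 8-library edgeR fit (adjusted p = 0.183). Day 10 lost its call without day 0 replicate 1 (0.1, adjusted p = 0.235) or 4 (0.0998), or day 10 replicate 2 (0.0754), 3 (0.0673) or 4 (0.0948). Day 12, at 0.2 and an adjusted p of 0.0596, passed without day 0 replicate 2 (0.0154) or 3 (0.00914) or day 12 replicate 2 (0.0498), and with library totals only (0.34, 0.00153). The rise from day 3 to day 5 (0.32, edgeR adjusted p = 0.00828) had an adjusted p of 0.0668 without day 3 replicate 1. The 8-library edgeR fit gave -0.31 and 0.0593 for day 14, which otherwise was -0.38 (adjusted p = 0.000414) and was -0.23 by limma on log2(FPKM + 1). The 6 fibroblast markers rose beside Me1 from day 3 to day 7. Their sums were 21463 to 23559 CPM on day 3, 39232 to 41683 CPM on day 5 and 55049 to 56044 CPM on day 7. They were 52439 to 59655 CPM on day 10, 39576 to 46058 CPM on day 12 and 15978 to 19143 CPM on day 14. Between days 10 and 12 the sum fell while Me1 held, and on day 14 the sum lay below day 3 while Me1 lay above it. The correlation of Me1 was 0.68 with the fibroblast, 0.57 with the epidermis, 0.57 with the sebaceous gland and 0.56 with the hair follicle score over the 28 libraries, and the part of these tissues in the course of Me1 was not tested.

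Fasn and Acaca, the pair that makes palmitate, moved together. Fasn had 89.3, 195, 187 and 89.7 FPKM on day 0, 237, 286, 282 and 272 FPKM on day 3, 304, 311, 301 and 211 FPKM on day 5, and 270, 278, 280 and 171 FPKM on day 7. All day 3 and day 5 libraries lay above all day 0 libraries, and 3 of 4 did on day 7, since day 7 replicate 4 fell inside the day 0 range. Fasn was 2.0-fold higher on day 3 (1.00 ± 0.191, edgeR adjusted p = 4.69e-05), 2.07-fold on day 5 (3.13e-05) and 1.78-fold on day 7 (0.000614). The 8-library edgeR fit of day 7 gave 0.79 with an adjusted p of 0.0615. Between days 7 and 10 Fasn fell by 0.64 on the log2 scale to 166 ± 7.29 FPKM (edgeR adjusted p = 0.0106), and the exact permutation p was 0.0571 because day 7 replicate 4 lay among the day 10 libraries. By limma on log2(FPKM + 1) the adjusted p of this fall was 0.0554. From day 10 on it held between 150.5 and 185.6 FPKM in all 12 libraries, where the test gave no difference from day 0 (0.19, 0.15 and 0.06 on days 10, 12 and 14, with edgeR adjusted p of 0.417, 0.549 and 0.806). The 95% interval of the day 14 difference ran from -0.34 to 0.45. That difference turned to -0.026 or -0.028 without day 0 replicate 1 or 4 and to -0.0034 without day 14 replicate 3. The step from day 3 to day 5 (0.048) turned to -0.051 without day 3 replicate 1 and to -0.018 without day 5 replicate 3.

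Acaca had 14.0, 27.8, 26.2 and 14.6 FPKM on day 0 and 46.7, 55.8, 57.6 and 57.8 FPKM on day 3. On day 5 it had 58.2, 60.2, 56.3 and 37.7 FPKM, and on day 7 it had 45.9, 47.1, 46.9 and 38.3 FPKM. Every library of these 3 days lay above every day 0 library. The rise was 2.74-fold on day 3 (1.46 ± 0.162, edgeR adjusted p = 7.74e-09), 2.64-fold on day 5 (2.05e-08) and 2.15-fold on day 7 (1.61e-06), each with an exact permutation p of 0.0286. Acaca then fell by 0.69 on the log2 scale to 28.6 ± 1.33 FPKM on day 10 (edgeR adjusted p = 0.00129) and stayed at 29.5 ± 1.69 and 28.95 ± 0.927 FPKM on days 12 and 14. The order of the day means broke only between day 7 and day 12, with overlap at all other neighbours. The late differences from day 0 were 0.42, 0.37 and 0.36 on days 10, 12 and 14, with edgeR adjusted p of 0.0307, 0.056 and 0.0499. The day 10 call was lost without day 0 replicate 1 (0.27, adjusted p = 0.125) or 4 (0.28, 0.122), without day 10 replicate 3 (0.0675) or 4 (0.0616), and in the 8-library edgeR fit (0.167). The day 12 difference passed with library totals only (0.51, adjusted p = 0.00838) and without day 0 replicate 2 (0.55, adjusted p = 0.00503) or 3 (0.51, 0.0133). The day 14 call was lost without day 0 replicate 1 (0.084) or 4 (0.0815) and without day 14 replicate 1 (0.0647), 2 (0.0772), 3 (0.103) or 4 (0.0598). It was 0.58 without day 0 replicate 2, 0.54 without replicate 3 and 0.56 by limma on log2(FPKM + 0.1). Without day 5 replicate 4, the step from day 5 to day 7 passed (-0.42, adjusted p = 0.0447; -0.29 and 0.175 with it) and that from day 3 to day 5 turned from -0.055 to 0.072. The step from day 12 to day 14, -0.011, turned positive by at most 0.03 without day 12 replicate 3 or 4 or day 14 replicate 1 or 4.

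Immune and epidermal markers moved on the same days as Fasn and Acaca. The 5 neutrophil markers summed to 15.9 to 41.7 CPM on day 0, 4313 to 5453 CPM on day 3, 1549 to 1956 CPM on day 5, 535 to 949 CPM on day 7 and 219 to 244 CPM on day 10, with all 5 higher than day 0 on each of these days. The 4 macrophage markers summed to 563 to 954 CPM on day 0, 1624 to 1711 CPM on day 3, 1484 to 1595 CPM on day 5, 986 to 1138 CPM on day 7 and 534 to 616 CPM on day 10. Both sums were highest on day 3, while the day 3 and day 5 libraries of Acaca and of Fasn overlapped. Over the 28 libraries Acaca had a correlation of 0.83 with the neutrophil, 0.69 with the macrophage, 0.73 with the brown adipocyte, -0.89 with the epidermis, -0.78 with the skeletal muscle, -0.73 with the sebaceous gland and -0.69 with the hair follicle score. Of the 4 endothelial markers, 3 were higher than day 0 and none lower on each of days 3, 5 and 7. The part of these cells in the rise of Fasn and Acaca was not tested.

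Elovl6 and Scd1, which act on the palmitate that Fasn makes, did not follow it alike. Elovl6 had 197, 105, 98.4 and 257 FPKM on day 0, 47.5, 43.9, 43.5 and 41.7 FPKM on day 3, 70.2, 68.6, 72.6 and 55.5 FPKM on day 5, and 75.5, 70.8, 67.8 and 65.7 FPKM on day 7. All 12 libraries of days 3 to 7 lay below all 4 of day 0. The fall was 3.58-fold on day 3 (-1.84 ± 0.186, edgeR adjusted p = 1.38e-09), 2.4-fold on day 5 (1.11e-06) and 2.36-fold on day 7 (2.32e-06), each with an exact permutation p of 0.0286. Between days 7 and 10 Elovl6 rose 2.87-fold to 220, 216, 188 and 210 FPKM, all above all day 7 libraries (1.52 ± 0.185, edgeR adjusted p = 2.83e-07), in the same step in which Fasn and Acaca fell. Elovl6 then fell by 0.6 on the log2 scale to 146 ± 16.1 FPKM on day 12 (edgeR adjusted p = 0.00904) and was at 162 ± 15.9 FPKM on day 14. By limma on log2(FPKM + 1) the fall to day 12 had an adjusted p of 0.0517. Days 10, 12 and 14 each overlapped day 0 and did not pass against it. Day 10 (0.29) passed without day 0 replicate 4 (0.59, adjusted p = 0.00173), day 12 (-0.32) without day 0 replicate 2 (-0.48, 0.0227) or 3 (-0.49, 0.0136), and day 14 (-0.15) turned to 0.035 or 0.23 without day 0 replicate 1 or 4. The small rise from day 3 to day 5 (0.58, edgeR adjusted p = 0.0198) lost its call without day 3 replicate 2 (0.0571), 3 (0.058) or 4 (0.066) or day 5 replicate 3 (0.0703). The step from day 5 to day 7, 0.025, was -0.047 without day 5 replicate 4 and -0.022 without day 7 replicate 1.

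Scd1 rose, fell and rose again. It had 750, 1036, 964 and 990 FPKM on day 0, 1381, 1560, 1520 and 1536 FPKM on day 3, 1116, 1048, 1026 and 949 FPKM on day 5, and 1611, 1632, 1618 and 1510 FPKM on day 7. The day 3 and day 7 libraries all lay above those of day 0 and of day 5, while day 5 overlapped day 0. Scd1 was 1.67-fold higher than day 0 on day 3 (0.74 ± 0.0809, edgeR adjusted p = 6.15e-09) and 1.7-fold on day 7 (0.77, 6.83e-09). The step from day 3 to day 5 was -0.55 (edgeR adjusted p = 8.51e-06) and that from day 5 to day 7 was 0.58 (2.53e-06). On day 10 it was at 1376 ± 18.6 FPKM, 1.42-fold above day 0 (0.5, edgeR adjusted p = 7.52e-06), and on days 12 and 14 at 1123 ± 69.0 and 1158 ± 85.6 FPKM. The day 5 difference from day 0 (0.19, edgeR adjusted p = 0.0474) lost its call without day 0 replicate 1 (0.11, 0.178) or 3 (0.063), without day 5 replicate 1 (0.15, 0.145) or 2 (0.0761), and in the 8-library edgeR fit (0.285). The day 14 difference (0.18, edgeR adjusted p = 0.0481) lost it without day 14 replicate 3 (0.12, 0.215) or 4 (0.0659) and in the 8-library edgeR fit (0.0889). It was 0.28 without day 0 replicate 2, 0.29 without replicate 4 and 0.31 with library totals only, where day 12 passed as well (0.26, adjusted p = 0.00478). The step from day 12 to day 14, 0.063, was -0.0052 without day 14 replicate 3. Scd1 had a correlation of 0.64 with the neutrophil and -0.62 with the sebaceous gland score over the 28 libraries, and the part of these cells was not tested.

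The paralogs of Scd1 share much of its sequence, and reads could be split between them. Scd1 took 85.6% to 91.5% of the counts of Scd1, Scd2, Scd3 and Scd4 on day 0 and 96.2% to 96.9% on day 3. Scd3, the sebaceous gland desaturase, had 76.8 to 105 FPKM on day 0 and 6.48 to 10.6 FPKM on day 3 (-3.31 on the log2 scale), and 11.2 to 17.0 FPKM on day 14 (-2.80). Scd2 differed by -0.54 on day 3 and did not pass on the later days. Scd4 had at most 77 counts in any library. The rise of Scd1 and the fall of Scd3 on day 3 were thus in opposite directions.

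Dgat2 was stable between libraries within each wound day and varied on day 0. It had 80.8, 191, 194 and 110 FPKM on day 0, which overlapped days 3, 5, 10 and 12. It had 213, 212, 217 and 204 FPKM on day 7 and 209, 220, 217 and 206 FPKM on day 14, all above all day 0 libraries. The difference was 0.55 ± 0.152 on day 7 (1.47-fold, edgeR adjusted p = 0.00344) and 0.44 ± 0.152 on day 14 (1.36-fold, 0.0138). Both were lost in the 8-library edgeR fits (0.145 and 0.109). The exact permutation test on log2 CPM gave 0.0286 for day 7 and 0.171 for day 14, where CPM scaled for composition overlapped although FPKM did not. The steps from day 5 to 7 (0.37) and from day 7 to 10 (-0.29) separated all libraries but did not pass (edgeR adjusted p = 0.0715 and 0.146). They passed in the 8-library edgeR fits (9.22e-05 and 0.00012). Between days 10 and 12 Dgat2 fell by 0.49 on the log2 scale, from 179 ± 9.14 to 136 ± 1.66 FPKM (edgeR adjusted p = 0.0116), and between days 12 and 14 it rose 1.59-fold (0.67, adjusted p = 0.000778). Both steps separated all libraries, although the fall had an adjusted p of 0.0832 by limma on log2(FPKM + 1). Day 7 was 0.36 without day 0 replicate 1. Without day 0 replicate 2 or 3, the differences of day 5 (0.35 in each case, adjusted p = 0.0473 and 0.0401, against 0.19 with all) and day 10 (0.43 and 0.44, 0.0189 and 0.0157, against 0.26) passed. Without day 0 replicate 1, day 12 passed (-0.41, 0.00287, against -0.23) and day 3 was -0.11, and without replicate 4 day 3 was -0.023, against 0.038 with all.

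Pck1 had the largest changes of the 10. It had 65.2, 48.1, 49.9 and 79.0 FPKM on day 0, 281, 331, 340 and 357 FPKM on day 3, 267, 253, 244 and 252 FPKM on day 5, and 272, 288, 288 and 321 FPKM on day 7. It had 248, 261, 256 and 249.7 FPKM on day 10, then 66.8, 73.8, 71.8 and 77.0 FPKM on day 12, and 261, 275, 242 and 242 FPKM on day 14. The 20 libraries of days 3, 5, 7, 10 and 14 all lay above the 8 of days 0 and 12, with no overlap. Against day 0 Pck1 was 5.63-fold higher on day 3 (2.49 ± 0.109, edgeR adjusted p = 3.66e-17), 4.32-fold on day 5 (1.76e-15), 4.81-fold on day 7 (9.72e-16), 4.03-fold on day 10 (1.12e-14) and 3.85-fold on day 14 (1.23e-14). The exact permutation p was 0.0286 for each of the 5. On day 12 the difference was 0.11 (95% interval -0.10 to 0.33, edgeR adjusted p = 0.397), and it passed without day 0 replicate 4 (0.28, adjusted p = 0.00962) and with library totals only (0.26, 0.04). Within the wound, Pck1 fell 3.73-fold between days 10 and 12 (edgeR adjusted p = 8.91e-14) and rose 3.57-fold between days 12 and 14 (3.61e-13).

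Markers of fat moved beside Pck1. Ucp1, which uncouples respiration in brown and beige fat, had 0.0935 to 0.759 FPKM on day 0, 422 to 557 FPKM on day 3, 983 to 1142 FPKM on day 5, 306 to 351 FPKM on day 7 and 181 to 197 FPKM on day 10. It had 3.44 to 7.08 FPKM on day 12 and 292 to 411 FPKM on day 14. The 8 brown adipocyte markers summed to 289 to 336 CPM on day 0, 1224 to 1584 CPM on day 3, 2381 to 2760 CPM on day 5, 1013 to 1210 CPM on day 7, 765 to 818 CPM on day 10, 207 to 228 CPM on day 12 and 887 to 1135 CPM on day 14. The low days of this sum, 0 and 12, were the low days of Pck1, although its highest day was day 5 and that of Pck1 day 3. The correlation of Pck1 with the brown adipocyte score was 0.97 over the 28 libraries, which share days and normalization. It was -0.84 with the sebaceous gland, -0.7 with the epidermis, 0.69 with the neutrophil and -0.66 with the skeletal muscle score. The brown adipocyte score is the mean log2 CPM of its 8 markers, not standardized. It therefore leans on Ucp1, which was 11.33 above day 0 on the log2 scale on day 5. Of the 8 markers, 5 were higher and 2 lower on day 3 and 3 were higher and 4 lower on day 12, and Zic1, a marker of classical brown fat, was lower on days 3 and 14 and higher on days 10 and 12. Ucp1 came near 0 on day 0, while Cidea had at least 59.7 FPKM and Cox8b at least 135 FPKM there.

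The sum of the white fat markers changed less, while its genes went both ways. On days 3 and 5, 2 of the 8 were higher and 4 lower, from Fabp4, a fatty acid carrier of fat cells (1.72 and 1.77 on the log2 scale), to Lep, which encodes leptin (-1.25 and -2.03). Adipoq, which encodes adiponectin, was between 354 and 587 FPKM in all 28 libraries, and the 8 white adipocyte markers summed to 4949 to 6182 CPM on day 0, 5989 to 7264 CPM on day 3, 6445 to 7625 CPM on day 5, 5643 to 6496 CPM on day 7, 5260 to 5769 CPM on day 10, 4014 to 4334 CPM on day 12 and 6529 to 6900 CPM on day 14. Day 12, the lowest day of Mlxipl, Srebf1 and Dgat2, had the lowest sum, with 6 of the 8 markers below day 0 and none above. Dgat2 had a correlation of 0.69 with this score and the largest of any member. The 9 sebaceous gland markers, Scd3 among them, summed to 2239 to 2634 CPM on day 0 and 654 to 775 CPM on day 3, with all 9 lower, and to 1572 to 1762 CPM on day 10. Elovl6 had a correlation of 0.63 with the sebaceous score, 0.69 with the hair follicle, 0.68 with the skeletal muscle, -0.75 with the macrophage, -0.76 with the neutrophil and 0.85 with the epidermis score, of whose 6 markers 5, 4 and 4 were lower than day 0 on days 3, 5 and 7. The 7 hair follicle markers summed to 201 to 1365 CPM on day 0, 4.83 to 10.8 CPM on day 3 and 12.8 to 16.7 CPM on day 5, with 7 and 6 of them lower, and to 729 to 993 CPM on day 7 and 233 to 265 CPM on day 10. The 4 hepatocyte markers summed to at most 5.15 CPM in any library. How much of the change of a member came from the amount of fat, gland or epidermis in a library was not tested.

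**Figure D3:**
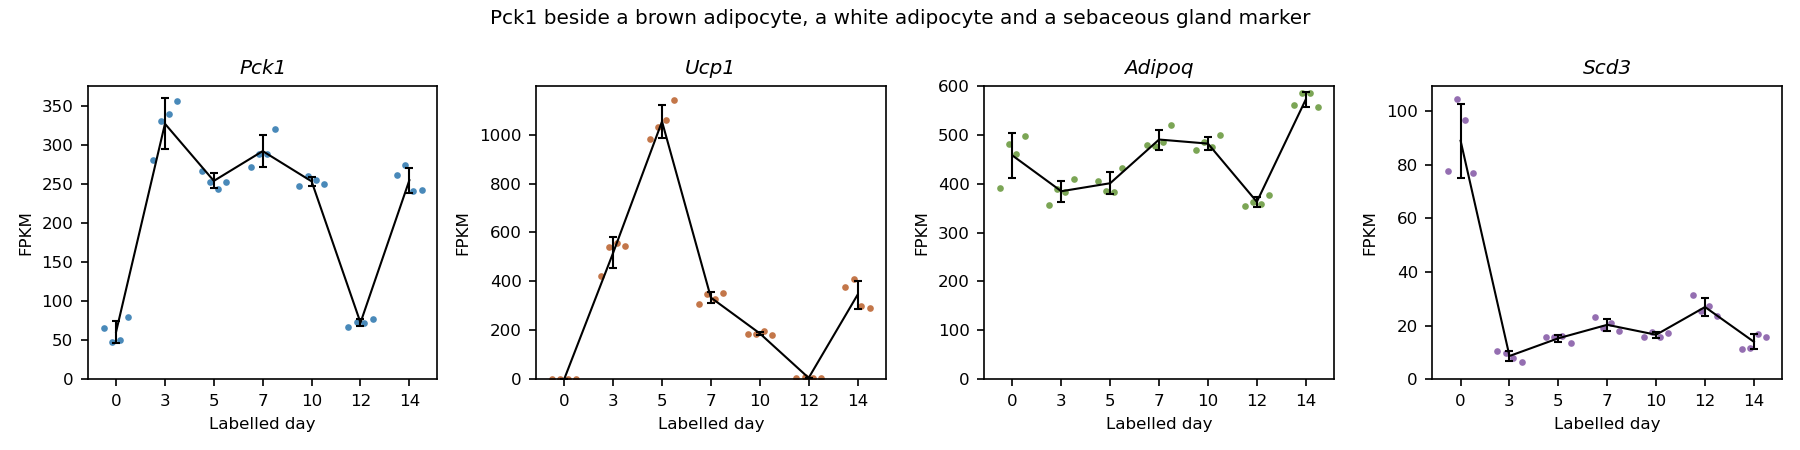
FPKM (vertical axes, linear from 0) by labelled day of Pck1 and of markers of brown adipocytes (Ucp1), white adipocytes (Adipoq) and the sebaceous gland (Scd3). Dots are single libraries, 4 a day, and the line joins the day means with bars of 1 SD. Pck1 and Ucp1 are both low on days 0 and 12, and Adipoq stays between 354 and 587 FPKM.

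The genes of both transcription factors had their highest level on day 5. Srebf1 had 26.4, 35.3, 35.2 and 28.6 FPKM on day 0 and 40.4, 41.4, 42.0 and 40.6 FPKM on day 5, its highest day, which lay above all libraries of every other day. The rise was 1.35-fold (0.43 ± 0.0676, edgeR adjusted p = 3.78e-06, exact permutation p = 0.0286). It fell by 0.56 on the log2 scale to 28.7 ± 0.981 FPKM on day 7 (edgeR adjusted p = 2.48e-07), was lowest on day 12 at 27.8 ± 0.954 FPKM, and rose 1.28-fold to 35.1 ± 0.79 FPKM on day 14 (0.000106). On day 12 it was below day 0 (-0.32, edgeR adjusted p = 0.000306), with log2 CPM apart and FPKM overlapping, and the size was -0.18 with no composition normalization and -0.16 by limma on log2(FPKM + 1), where the adjusted p was 0.0519. On day 14 the difference of 0.036 became 0.16 and passed (0.0347) with no composition normalization. The day 3 difference of 0.14 (adjusted p = 0.0701) passed without day 0 replicate 2 (0.0114) or 3 (0.0145) or day 3 replicate 1 (0.0127), 3 (0.0166) or 4 (0.0217). Day 7 (-0.13) passed without day 0 replicate 1 (-0.2, 0.00652) or 4 (-0.17, 0.0361), and day 10 (-0.031) turned to 0.032 or 0.027 without day 0 replicate 2 or 3. Srebf1 overlaps the opposite-strand gene Rai1 over 0.464% of its length, and the strand setting of the counting is not given in the sources used here, so a part of its reads could belong to Rai1, which had 745 to 1610 counts.

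Mlxipl had 4.26, 4.32, 5.35 and 5.93 FPKM on day 0, 6.39, 6.55, 6.63 and 6.45 FPKM on day 5, and 2.28, 2.92, 3.09 and 3.10 FPKM on day 12. All day 5 libraries were above and all day 12 libraries below those of day 0. The differences were 0.43 ± 0.0926 (1.35-fold, edgeR adjusted p = 0.000228) and -0.95 ± 0.0949 (1.93-fold lower, 4.79e-09), each with an exact permutation p of 0.0286. It fell at 3 steps in a row, from day 5 to 7 (-0.35), day 7 to 10 (-0.42) and day 10 to 12 (-0.61, edgeR adjusted p = 7.77e-06), and rose 1.44-fold from day 12 to 14 (0.53, 5.83e-05). Each of these steps separated all libraries. Day 10 (-0.34, edgeR adjusted p = 0.00362) and day 14 (-0.42, 0.000303) were below day 0, and the day 14 value was -0.25 without day 0 replicate 4. By limma on log2(FPKM + 1), which understates the change of low genes, days 10, 12 and 14 gave -0.22, -0.63 and -0.23. Without day 0 replicate 4, day 3 passed (0.23, adjusted p = 0.0302, against 0.085 with all). The rise from day 3 to day 5 (0.35, edgeR adjusted p = 0.0065) had an adjusted p of 0.0591 without day 3 replicate 1. Over the 28 libraries, Mlxipl had a correlation of -0.75 with the hair follicle, 0.71 with the neutrophil and 0.63 with the macrophage score, Srebf1 had -0.71 with the hair follicle and 0.62 with the brown adipocyte score, and the part of these cells was not tested.

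Between neighbouring wound days, where day 0 enters only the spread of the fit, most members moved in 1 direction between days 10 and 12. In 8-library edgeR fits, which leave day 0 out, further steps passed. These were Dgat2 and Pck1 from day 5 to 7 and from day 7 to 10, Acly from day 10 to 12 and Elovl6 from day 12 to 14. From day 3 to 5, 5 members were higher and 2, Scd1 and Pck1, lower, where 12.9% of all genes were higher and 11.4% lower. From day 5 to 7, 2 were higher, Scd1 and Me1, and 3 lower, Acly, Srebf1 and Mlxipl, against 13.9% and 14.6%. From day 7 to 10, 1 was higher, Elovl6, and 5 were lower, Fasn, Acaca, Acly, Scd1 and Mlxipl, against 14.3% and 18.0%. From day 10 to 12, 0 were higher and 6 lower, Scd1, Elovl6, Srebf1, Mlxipl, Dgat2 and Pck1, against 18.7% and 20.7%. The count of 0 higher was from edgeR, with 0 members higher at an unadjusted p under 0.05, and the 8-library fits of edgeR and DESeq2 each gave 1, Acly. From day 12 to 14, 4 were higher, Srebf1, Mlxipl, Dgat2 and Pck1, and 2 lower, Acly and Me1, against 19.9% and 25.3%. The FPKM of neighbouring days did not overlap for 8 members from day 3 to 5 (28.3% of all genes), 7 from day 5 to 7 (29.9%), 8 from day 7 to 10 (38.4%), 7 from day 10 to 12 (47.9%) and 6 from day 12 to 14 (47.0%). By the criteria of the study, 0 members changed in the first pair of steps, where 2.91% and 3.66% of all genes did. These criteria counted Elovl6 from day 7 to 10 (4.61%) and Pck1 from day 10 to 12 (6.01%) and from day 12 to 14 (3.57%).

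The members did not rise and fall as 1 group. Over the 28 libraries the correlation of log2 CPM was 0.97 for Fasn with Acaca and 0.83 for Fasn with Acly, and it was -0.84 for Fasn with Elovl6 and -0.87 for Acaca with Elovl6. These are descriptions over libraries that share days. The mean of the members' standardized log2 CPM had its highest member correlations with Fasn (0.86) and Acaca (0.84), and Me1 (-0.07) and Elovl6 (-0.62) did not follow it. The 5 other genes most like that mean were Ptgr2 (0.92), Kdr (0.92), Tbx5 (0.91), Ebf3 (0.90) and Tspan12 (0.90), by Pearson's r over 28 libraries. Ptgr2 had 15.7 to 30.2 FPKM and Kdr, an endothelial receptor for VEGF, had 4.91 to 14.9 FPKM, while Tbx5 was close to no expression at 0.00455 to 0.442 FPKM.

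The other genes of lipid metabolism were counted over lists. Among all genes tested, to be set beside these counts, day 3 had 31.8% higher and 34.8% lower, day 5 had 29.0% higher and 30.6% lower, day 12 had 21.7% higher and 25.6% lower, and day 14 had 28.2% higher and 34.5% lower. Of 18 tested genes of desaturation and elongation, 4 were higher and 13 lower than day 0 on day 3, from Hacd4 (0.94) to Scd3 (-3.31), with a median of -0.68 beside -0.03 for all genes. On day 14, 3 were higher and 10 lower, from Fads2 (1.81), the delta-6 desaturase of polyunsaturated chains, to Scd3 (-2.80). The list had more lower than higher genes on each of the 6 days, as all genes tested had on every day except day 7. Of 17 genes that supply acetyl-CoA, malonyl-CoA and NADPH, 9 were higher and 3 lower on day 3, from Mpc1 (0.99), a mitochondrial pyruvate carrier, to the acetyl-CoA synthetase Acss2 (-0.80). On day 14, 10 were higher and 3 lower, from the transketolase Tkt (0.71) to the mitochondrial malic enzyme Me3 (-1.59). The medians were 0.19 and 0.15.

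The other genes of glycerolipid synthesis, 18 without Dgat2 and Pck1, had 10 higher and 3 lower on day 3 and 14 higher and 1 lower on day 5. On day 12, 3 were higher and 7 lower, where 21.7% and 25.6% of all genes were, and the median of -0.06 is smaller in size than the 0.143 by which library totals alone raise the median of all genes. Glycerol kinase, Gk, which makes glycerol phosphate from glycerol, led on day 3 (2.79) and on day 14 (1.42), with 2.69 to 3.63 FPKM on day 0 and 19.0 to 22.3 FPKM on day 3. The lowest were Agpat5 (-0.52) on day 3 and Agpat4 (-1.49) on day 14, both acyltransferases of an earlier step. On day 14, 7 were higher and 3 lower. Like Pck1, Gk was low on day 12, at 2.60 to 3.04 FPKM. Of 20 regulators of lipogenesis, 4 were higher and 6 lower on day 3 and 3 were higher and 6 lower on day 14, under the shares of all genes (31.8% and 34.8% on day 3, 28.2% and 34.5% on day 14). On the days between, the lower ones were 8 on days 5 and 7, 7 on day 10 and 10 on day 12, where 30.6%, 24.8%, 26.9% and 25.6% of all genes were lower, and the higher ones were at most 6. On day 3 they ran from Cebpb (1.73), an adipogenic factor also induced by inflammation, to Insig2 (-1.25), which holds SREBP proteins in the endoplasmic reticulum. On day 14, Mlxip, the paralog of Mlxipl, had -0.66 and the hormone gene Fgf21 had 1.28 without passing the test (edgeR adjusted p = 0.14).

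Of 14 genes of the lipid droplet and lipolysis, 10 were higher and 4 lower on day 3, from Plin5 (2.95), a droplet coat protein of oxidative tissue, to Fitm1 (-2.55), known from muscle. On days 7 and 10, 7 were higher and 4 lower, on day 12, 1 was higher and 8 lower, and on day 14, 6 were higher and 4 lower, with the same highest (1.79) and lowest (-2.53) gene as on day 3. Of all genes, day 3 had 31.8% higher and 34.8% lower, day 7 had 25.6% higher and 24.8% lower, day 10 had 23.5% higher and 26.9% lower, and day 14 had 28.2% higher and 34.5% lower. Of 17 tested genes of fatty acid uptake and oxidation, 15 were higher and 2 lower on day 3, from Acadl (1.47), an acyl-CoA dehydrogenase, to the fatty acid transporter Slc27a1 (-1.07), beside 5 higher and 9 lower on day 12 and 14 higher and 1 lower on day 14, from Lpl (1.31), lipoprotein lipase, to Slc27a4 (-0.47). Their median was 0.78 on day 3, -0.22 on day 12 and 0.80 on day 14, with all genes at -0.03, -0.04 and -0.06, and the day 12 median is larger in size than the 0.143 by which library totals alone move all genes. The skeletal muscle markers, 6 of 6 lower than day 0 on every later day, fell beside Fitm1, and their part in that fall was not tested. Scd3 and Elovl3 each stand in 2 of the lists used here.

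**Figure D4:**
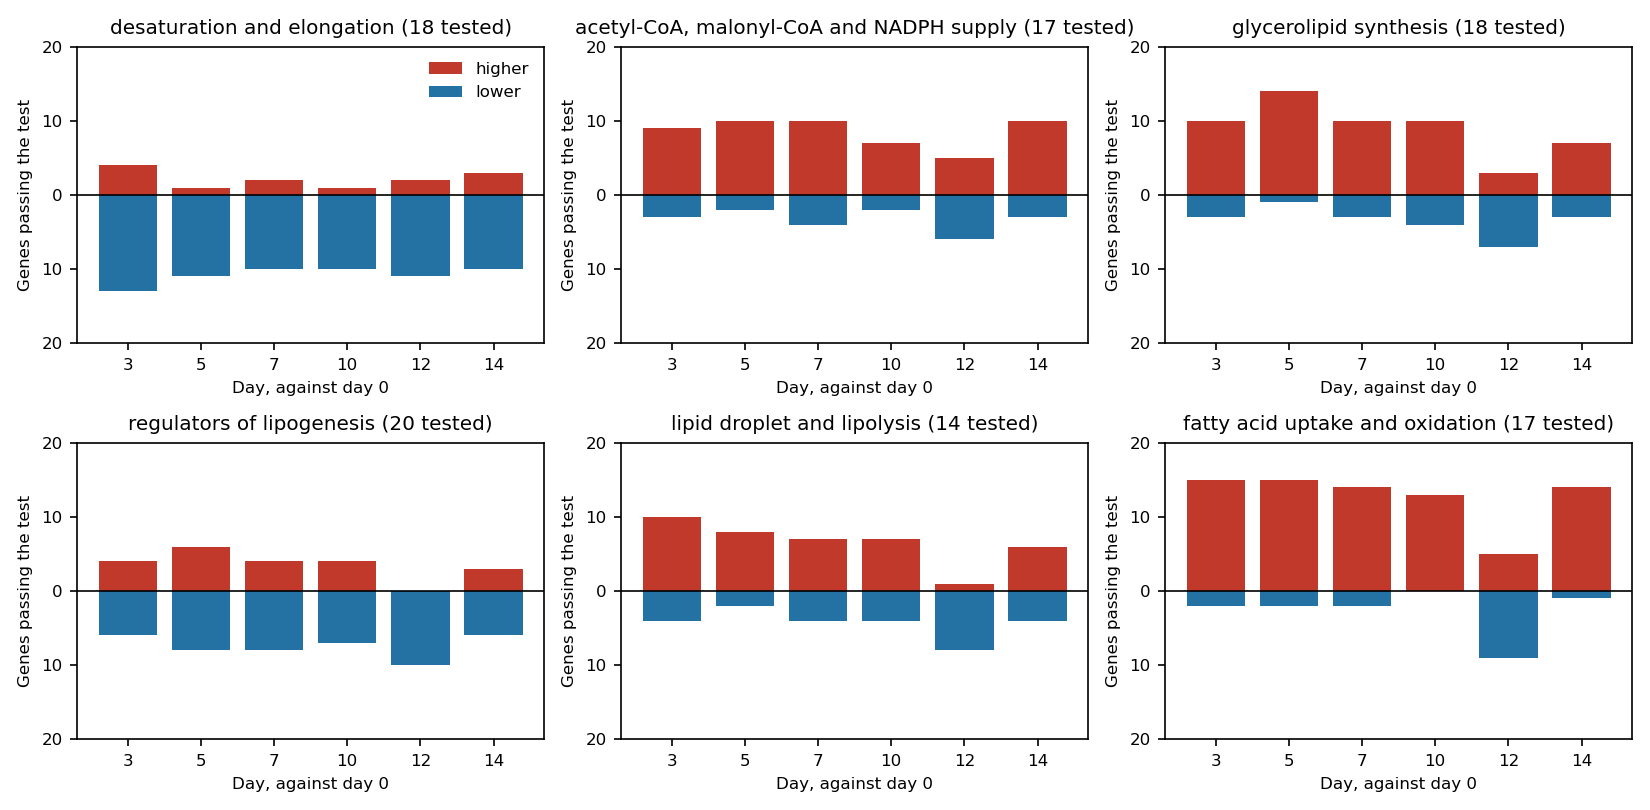
Number of genes of 6 lists of lipid metabolism (vertical axes) that were higher (red, up) or lower (blue, down) than day 0 with an adjusted p under 0.05 (edgeR), by day (horizontal axes), with the number tested in each title. Desaturation and elongation has 10 to 13 lower genes on every day, and uptake and oxidation has 13 to 15 higher genes on every day except day 12, when it has 5.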

How the data were processed

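RNA from wounded skin of MLKL+/+ mice gave 28 libraries in 7 labelled days, with 4 libraries a day. The authors deposited raw counts and FPKM for 29068 gene symbols. Per the labels, RNA was taken up in TRIzol and made into libraries with the VAHTS Universal V6 kit, and the submitters' processing notes name fastp, R 3.2.0 and mm10. The aligner, counter, annotation and strand setting are not given in the sources used here, so overlapping genes and paralogs can share reads. The deposited FPKM equal the count divided by a constant length and the library total (checked on 12675 genes, largest coefficient of variation 8.97e-07%). Every column was mapped to a sample by its title.

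Counts were fitted with edgeR 4.0.16 in R 4.3.3 (TMM, filterByExpr, glmQLFit, glmQLFTest, 21 residual degrees of freedom), with Benjamini-Hochberg adjustment over 18107 genes. Exact two-sided permutation tests used log2 CPM (prior count 2), 4 against 4, smallest p 0.0286. Replicate numbers did not pair libraries, and the correlations are given with the processing alternatives. The alternatives were other size factors, filters of none or 10 counts, DESeq2 1.42.0, fits of 8 libraries, a replicate block, an Xist covariate (from at most 13 counts a library), limma 3.58.1 on log2(FPKM + 1) or log2(FPKM + 0.1), the study's criteria and each library left out. The edgeR script was tested on simulated data. Named beside the members were, in each lipid list, the genes with the highest and lowest difference on days 3 and 14, the fat and sebaceous markers, the Scd paralogs and the 5 genes most like the members. Other genes named for a single overlap or marker list were chosen after their values were seen. The members and lists were chosen with earlier results of these data known. Sequences and positions are from RefSeq on GRCm38.p6, the assembly that mm10 denotes. Correlations carry no test.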

Additional observations from a re-analysis of the deposited data

Results flagged for a closer look

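Of 70 groups of 4 libraries, 10 members on 7 days, 8 held a library whose gap to the nearest other exceeded the 95% limit of Dixon's test, where chance gives about 1 in 20, or 3.5. Fasn was low in day 5 replicate 4, at 11.2 log2 CPM against 11.68 to 11.73 in the other libraries of that day, and in day 7 replicate 4, at 10.81 against 11.49 to 11.55. Both libraries stood apart from their day over all genes as well, as did day 14 replicate 3. Acaca was low in the same libraries, at 8.74 in day 5 replicate 4 against 9.30 to 9.39 and at 8.68 in day 7 replicate 4 against 8.97 to 9.01. Fasn was high in day 14 replicate 3, at 10.78 against 10.53 to 10.57. In day 3 replicate 1, Acly was low at 8.85 against 9.10 to 9.11 and Scd1 was low at 12.78 against 12.94 to 12.97. Mlxipl was low in day 7 replicate 1, at 4.71 log2 CPM against 4.92 in the others.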

How the results depend on the processing

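For the 110 differences of single members, 759 calls kept and 57 lost their side of the threshold under other settings, and 514 kept and 30 lost it with 1 library left out. Of the differences that had not passed, 44 values passed under other settings and 23 with 1 library left out. No call turned its direction. The results are limited by 4 libraries a day, the spread of day 0, the scaling on days 12 and 14 and, for Mlxipl, depth. The criteria of the study left 1 higher and 1 lower on day 3, 1 and 0 for days 5, 7, 10 and 14, 0 lower for day 12, 0 and 0 from day 3 to 5 and from day 5 to 7, 0 lower from day 7 to 10 and from day 12 to 14, 1 lower from day 10 to 12 and 1 higher from day 12 to 14. In 8-library fits, edgeR and DESeq2 gave 3 and 4 higher for day 7, 2 and 2 for day 10, 1 and 1 for day 14, 4 and 4 from day 5 to 7, 1 and 1 from day 10 to 12, and edgeR gave 1 lower on day 14. On day 12 the count of 0 higher became 5 with no composition normalization, 1 by DESeq2 on all libraries, 4 by limma with either pseudocount and no FPKM minimum and 5 with a minimum mean FPKM of 1, and limma with either pseudocount and no FPKM minimum gave 1 lower. With at least 10 counts in every library or an Xist covariate, day 14 had 2 higher. Limma with either pseudocount and no FPKM minimum gave 3 lower from day 7 to 10. The cause of these changes was not tested, apart from the fewer samples of the 8-library fits. Without composition normalization the median of all genes moved by 0.143 on day 12 and 0.126 on day 14. The share of all calls that were higher then went from 45.8% to 67.4% on day 12, 45.0% to 56.2% on day 14, 48.8% to 58.9% from day 5 to 7, 44.2% to 55.5% from day 7 to 10 and 47.5% to 63.7% from day 10 to 12, with limma within 71.0% on day 12.

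The replicate numbers did not pair libraries: same-numbered libraries of other days had a correlation of deviations between -0.0935 and 0.108, with a median of -0.00299. A replicate block gave 2 higher on day 12 and changed the call of 3 of the 110 differences. Leaving out 1 library gave 4 to 6 higher for day 3, 6 to 8 for day 5, 1 to 2 lower for day 7, 2 to 5 higher for day 10, 0 to 2 higher and 2 to 3 lower for day 12, 2 to 4 higher and 2 to 3 lower for day 14, 3 to 5 higher from day 3 to 5 and 3 to 4 lower from day 5 to 7.

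Every difference that changed sign was small and had not passed. With no composition normalization, Dgat2 had -0.02 for day 3, Acly 0.012 and Srebf1 0.023 for day 10, and from day 10 to 12 Fasn had 0.045, Acaca 0.046 and Me1 0.081. By limma on log2(FPKM + 1) without and with the FPKM minimum, and on log2(FPKM + 0.1), Acly had 0.037, 0.037 and 0.038 and Srebf1 0.032, 0.032 and 0.034 for day 10, Dgat2 0.0083, 0.0083 and 0.0091 for day 12, and Elovl6 0.096, 0.096 and 0.097 for day 14. The same fits gave Fasn 0.043 each, Acaca 0.044, 0.044 and 0.045 and Me1 0.079, 0.079 and 0.08 from day 10 to 12, where the Xist covariate gave Fasn 0.013 and Me1 0.011 and the 8-library fits gave Me1 0.003 (edgeR) and 0.0056 (DESeq2). Acaca from day 12 to 14 had 0.029 with DESeq2 size factors, 0.019 with no filter, 0.029 by DESeq2 on all libraries, and 0.015 and 0.021 in the 8-library fits. With 1 library left out, the ranges were -0.11 to 0.21 for Dgat2 on day 3, -0.13 to 0.063 for Acly and -0.099 to 0.032 for Srebf1 on day 10, -0.028 to 0.30 for Fasn and -0.28 to 0.23 for Elovl6 on day 14, -0.051 to 0.16 for Fasn and -0.16 to 0.072 for Acaca from day 3 to 5, -0.047 to 0.052 for Elovl6 from day 5 to 7, -0.031 to 0.023 for Me1 from day 10 to 12, and -0.043 to 0.03 for Acaca and -0.0052 to 0.11 for Scd1 from day 12 to 14.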
